A study of Homo sapiens with 32 samples.

Results

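The genes described here are 33 genes of homologous recombination and of the Fanconi anaemia pathway, chosen by name, out of 18854 genes that had a matched transcript in these RNA-seq tables. All 33 passed the filter on low counts, which left 14318 genes for testing. The RNA came from 4 human cancer cell lines, all of them established: A375 is a melanoma line, DLD1 a colorectal one, and the breast is the origin of both Cal51 and MDA-MB-231. In each line, cells labelled wild-type and cells labelled G579S received OTS964, a small-molecule inhibitor of the kinase CDK11, at 100 nM or its solvent DMSO for 6 h. Each of the 16 groups had 2 libraries, which makes 32: wild-type with OTS964, wild-type with DMSO, G579S with OTS964 and G579S with DMSO, each in 4 lines. The design text describes wild-type cells as sensitive and G579S cells as resistant to the inhibition of CDK11. The labels do not name the gene that carries the G579S change, whether the G579S cells are single clones, or whether separate cultures gave the 2 libraries of a group. Because of this, p-values speak only of the spread among these libraries, which within a group may be technical. In the fits across lines that spread also holds differences between lines in their response. Libraries of a line count there as separate, so p-values may be too small for a statement about 4 lines.

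Homologous recombination mends DNA double-strand breaks by copying an intact sister chromatid. MRE11, RAD50 and NBN sense the break, RBBP8, EXO1 and BLM cut back its ends, and BRCA1, BARD1, PALB2 and BRCA2 act at the resected ends before strands are exchanged. The Fanconi pathway releases crosslinks between DNA strands: a core complex with the ligase FANCL and the conjugating enzyme UBE2T attaches ubiquitin to FANCD2 and FANCI, which call in nucleases held by SLX4. Both pathways act mainly in replicating cells, and cancer cells that lack them are known for their sensitivity to crosslinking drugs and PARP inhibitors.

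A library held between 16091376 and 29742687 estimated reads. Levels are given in CPM, counts scaled to a common library size, after TMM, a method that sets most genes as unchanged. TMM factors of wild-type libraries ran from 0.701 to 0.832 with OTS964 and from 1.091 to 1.157 with DMSO. Scaling by library totals alone shifted the wild-type log2 fold changes of all genes by a median of -0.54. Changes are therefore relative to the bulk of genes, and small rises in wild-type cells turn with the scaling. In bulk RNA, fewer cells of a type and less RNA per cell cannot be told apart. The libraries labelled DLD1 wild-type carried melanocyte markers, and most colorectal ones were low in them. SOX10, a transcription factor of melanocytes, stood at 1.29 CPM in DLD1 G579S cells under DMSO and at 716 CPM in the cells labelled DLD1 wild-type. In A375 wild-type cells under DMSO it stood at 591 CPM. VIM, a mesenchymal marker, stood at 8.06 CPM in DLD1 G579S, 3525 CPM in labelled DLD1 wild-type and 3346 CPM in A375 wild-type cells under DMSO. Of 10 colorectal markers, 1 was at 0 in DLD1 G579S cells under DMSO, against 2 in the cells labelled DLD1 wild-type, and their summed level was 7208 and 7461 CPM against 260 and 320 CPM. In A375 wild-type cells under DMSO 8 were at 0 and the sum was 42.2 and 43.9 CPM. The cells are called labelled DLD1 wild-type below. Among pairs of libraries of a group, those of Cal51 G579S with DMSO, MDA-MB-231 wild-type with OTS964 and labelled DLD1 wild-type with OTS964 differed most, with a chi-square per gene of 86.85, 85.96 and 47.84, and the closest pair had 5.68.

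In wild-type cells OTS964 lowered most genes of the set. Across the 4 lines 21 of 33 members fell (63.6%) and 2 rose, against 31.8% of all 14318 tested genes that fell and 27.1% that rose (edgeR quasi-likelihood F test, Benjamini-Hochberg adjusted p below 0.05 over all genes). The median log2 fold change was -0.99 over the members and -0.11 over all genes tested. With library totals 28 members fell and 0 rose, against 47.7% and 13.4% of all genes, and the medians were -1.54 over the members and -0.65 over all genes. Summed over the 33 members, the level was 752 to 1044 CPM with a median of 844 CPM in the 8 wild-type OTS964 libraries, and 1031 to 1407 CPM with a median of 1158 CPM in the 8 wild-type DMSO libraries. In G579S cells the sum had a median of 1027 CPM with OTS964 and of 1182 CPM with DMSO, and 1 member fell. The 5 largest fitted falls were those of FANCM, BARD1, EXO1, FANCE and BRIP1. ATM, ATR, FANCD2 and FANCI were not called lower per gene with TMM. With library totals ATM, ATR and FANCD2 were called lower too.

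**Figure D1:**
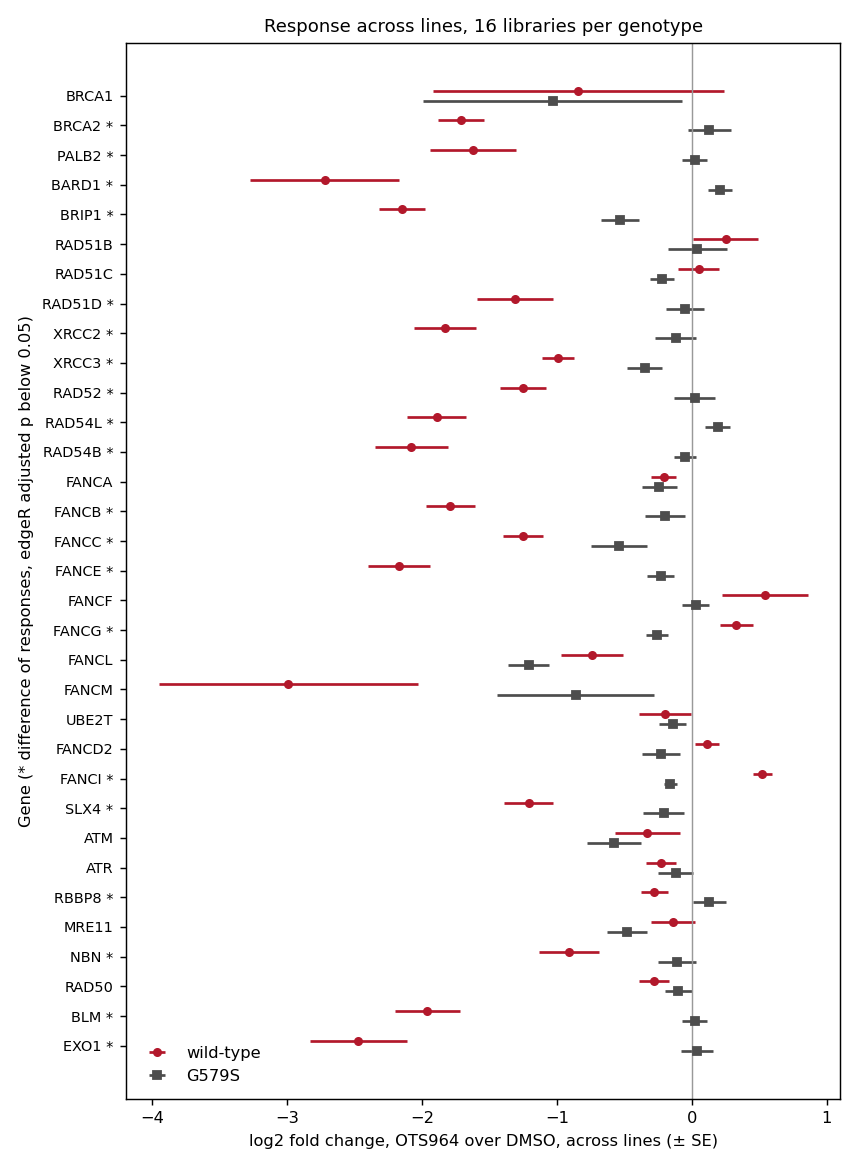
Log2 fold change with its standard error (x axis) of each of the 33 genes (y axis), OTS964 over DMSO across 4 lines, in wild-type cells (circles, 16 libraries) and G579S cells (squares, 16 libraries), with stars on genes whose response differed by genotype. Most wild-type circles lie left of 0, BARD1 at -2.72 and EXO1 at -2.47, and the G579S squares of these genes lie near 0.

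Promoters of 30 members were found in RefSeq (GRCh38.p14), each 300 bases from 250 before to 50 after a start site. The E2F motif, bound by the transcription factors that drive S phase genes, was searched as TTTCCCGC, TTTCGCGC, TTTGCCGC or TTTGGCGC on both strands. It stood in 5 of the 30 promoter sets (16.7%), against 6.38% of 11587 tested genes with a promoter. The 5 are printed because their genes moved in different ways: EXO1, XRCC2 and FANCC fell in wild-type cells, and FANCD2 and FANCA did not pass the test. Capitals mark the motif.
EXO1 promoter (chr1:241847954-241848253, plus strand): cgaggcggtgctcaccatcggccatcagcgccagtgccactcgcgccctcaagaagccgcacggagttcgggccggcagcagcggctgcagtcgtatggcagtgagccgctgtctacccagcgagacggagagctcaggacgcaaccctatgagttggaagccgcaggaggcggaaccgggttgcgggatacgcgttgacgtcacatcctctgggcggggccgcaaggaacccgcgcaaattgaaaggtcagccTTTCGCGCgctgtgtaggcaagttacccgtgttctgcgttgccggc
XRCC2 promoter (chr7:152676092-152676391, minus strand): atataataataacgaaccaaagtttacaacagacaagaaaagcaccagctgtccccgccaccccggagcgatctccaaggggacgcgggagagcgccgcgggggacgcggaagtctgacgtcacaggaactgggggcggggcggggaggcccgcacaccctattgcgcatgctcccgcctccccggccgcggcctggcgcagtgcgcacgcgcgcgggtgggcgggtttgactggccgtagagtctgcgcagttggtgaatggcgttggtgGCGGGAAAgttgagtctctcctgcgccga
FANCC promoter (chr9:95317660-95317959, minus strand): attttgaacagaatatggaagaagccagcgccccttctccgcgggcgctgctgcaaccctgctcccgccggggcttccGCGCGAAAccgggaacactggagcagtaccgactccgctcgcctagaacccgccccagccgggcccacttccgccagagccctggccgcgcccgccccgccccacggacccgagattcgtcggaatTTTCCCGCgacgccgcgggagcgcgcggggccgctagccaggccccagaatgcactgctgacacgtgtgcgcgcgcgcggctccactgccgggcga
FANCD2 promoter (chr3:10026187-10026486, plus strand): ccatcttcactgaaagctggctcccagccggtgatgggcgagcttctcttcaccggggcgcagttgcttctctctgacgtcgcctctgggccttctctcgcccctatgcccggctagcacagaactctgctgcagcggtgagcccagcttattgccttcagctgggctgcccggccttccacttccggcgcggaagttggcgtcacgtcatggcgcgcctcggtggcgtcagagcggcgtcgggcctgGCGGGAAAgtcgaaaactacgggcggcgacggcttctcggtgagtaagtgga
FANCA promoter (chr16:89816598-89816897, minus strand): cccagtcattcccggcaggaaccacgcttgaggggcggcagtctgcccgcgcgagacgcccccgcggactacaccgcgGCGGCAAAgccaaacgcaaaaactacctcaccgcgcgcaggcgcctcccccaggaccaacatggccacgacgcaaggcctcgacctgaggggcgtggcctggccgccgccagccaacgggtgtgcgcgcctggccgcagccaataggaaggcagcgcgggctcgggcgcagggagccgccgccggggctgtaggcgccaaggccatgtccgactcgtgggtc
In EXO1, XRCC2 and FANCD2 the motif began 4, 21 and -2 bases from the start site, and FANCC held 2 copies. Of the members that fell, 15.8% with a promoter held the motif, against 18.2% of the other members. The CHR element, TTTGAA or TTCGAA, stood in 13.3% of the members' promoters against 15.8% of all, and CCAAT in 40.0% against 43.0%. A match describes the letters of the promoter and was not tested for binding.

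Of the 5 genes of the BRCA1 and BRCA2 complexes, 4 fell in wild-type cells and BRCA1 did not pass the test. BARD1, the partner that forms a ubiquitin ligase with BRCA1, lay between 0 and 11.7 CPM with a median of 3.15 CPM in the 8 wild-type OTS964 libraries, and between 11.7 and 42.8 CPM with a median of 19.4 CPM in the 8 wild-type DMSO libraries. The highest OTS964 library and the lowest DMSO library met at 11.7 CPM. The log2 fold change was -2.72 ± 0.55 (SE, adjusted p = 0.00058 in edgeR's quasi-likelihood test). BRIP1, the helicase that binds BRCA1, lay between 4.64 and 27.2 CPM (median 6.20 CPM) with OTS964 and between 19.5 and 76.8 CPM (median 33.6 CPM) with DMSO. Its groups overlapped only through the second MDA-MB-231 OTS964 library, and it fell by 2.15 ± 0.17 on the log2 scale (edgeR adjusted p = 6.3e-08). BRCA2, the tumour suppressor that PALB2 binds, lay between 6.31 and 17.2 CPM (median 6.86 CPM) with OTS964 and between 16.8 and 44.0 CPM (median 24.7 CPM) with DMSO. The same MDA-MB-231 library was the only OTS964 library above the lowest DMSO library, and the log2 fold change was -1.71 ± 0.17 (edgeR adjusted p = 6.3e-07). PALB2, which joins BRCA1 to BRCA2, lay between 1.63 and 15.0 CPM (median 7.82 CPM) with OTS964 and between 17.5 and 27.2 CPM (median 23.8 CPM) with DMSO. Its groups did not overlap (log2 fold change -1.62 ± 0.32, edgeR adjusted p = 0.00045).

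BRCA1 itself was barely measured. It stood between 0 and 9.50 CPM with a median of 1.13 CPM in wild-type OTS964 libraries, 4 of them at 0, and between 0.748 and 7.29 CPM with a median of 1.81 CPM in wild-type DMSO libraries. The 2 labelled DLD1 wild-type OTS964 libraries were both at 0, which allows up to 3 counts in each. If the mean of 1.37 CPM under DMSO is taken as exact, the level was at least 5.07-fold lower. The tests within lines called BRCA1 lower in 0 of the 4 labelled wild-type lines, so this fall did not pass. Across lines its log2 fold change was -0.84 ± 1.08 (edgeR adjusted p = 0.53) and its groups overlapped. It stood at -2.05 without the first Cal51 OTS964 library and at -0.22 without the first A375 DMSO library (edgeR adjusted p = 0.11 and 0.88). 5 transcripts of BRCA1 were matched and reads were split among transcripts by estimate, so its level is uncertain.

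Of the 8 genes of strand exchange, 6 fell in wild-type cells. RAD54L, a motor protein that helps strands pair, lay between 6.05 and 19.5 CPM (median 9.66 CPM) in wild-type cells with OTS964 and between 25.3 and 68.9 CPM (median 40.4 CPM) in wild-type DMSO libraries. The related RAD54B lay between 2.11 and 12.4 CPM (median 6.42 CPM) with OTS964 and between 23.9 and 31.5 CPM (median 26.2 CPM) with DMSO. XRCC2, a subunit of a complex with RAD51D, lay between 3.71 and 10.5 CPM (median 6.95 CPM) with OTS964 and between 17.7 and 36.2 CPM (median 21.9 CPM) with DMSO. None of these 3 genes overlapped between treatments, and neither did RAD52, an annealing protein, with medians of 3.59 CPM under OTS964 and 8.05 CPM under DMSO. The log2 fold changes were -1.89 ± 0.22 for RAD54L, -2.08 ± 0.27 for RAD54B, -1.83 ± 0.23 for XRCC2 and -1.25 ± 0.17 for RAD52 (SE, edgeR adjusted p between 4.1e-06 and 1.6e-05). RAD51D and XRCC3, the partner of RAD51C, fell by 1.31 ± 0.28 and 0.99 ± 0.12 on the log2 scale (edgeR adjusted p = 0.00087 and 4.8e-06), with overlapping groups. RAD51C itself had medians of 22.2 CPM with OTS964 and 25.4 CPM with DMSO (0.05 ± 0.15, edgeR adjusted p = 0.80), and RAD51B medians of 3.23 and 3.03 CPM (0.25 ± 0.24, edgeR adjusted p = 0.40). The log2 fold changes of both turned below 0 with library totals, to -0.50 for RAD51C and -0.29 for RAD51B.

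Of the 6 genes of break sensing and resection, 5 fell in wild-type cells, by very different amounts. EXO1, the nuclease of long-range resection, lay between 0.356 and 13.0 CPM (median 7.41 CPM) in wild-type cells with OTS964 and between 24.5 and 70.6 CPM (median 33.9 CPM) in wild-type DMSO libraries. BLM, the Bloom helicase that works with it, lay between 1.73 and 11.1 CPM (median 9.44 CPM) with OTS964 and between 23.5 and 45.5 CPM (median 30.9 CPM) with DMSO. Neither gene overlapped between treatments. Their log2 fold changes were -2.47 ± 0.36 and -1.96 ± 0.24 (SE, edgeR adjusted p = 3.4e-05 and 5.6e-06). NBN, the signalling subunit of the sensor complex, fell by 0.91 ± 0.22 on the log2 scale (edgeR adjusted p = 0.0022), with medians of 23.8 CPM under OTS964 and 49.5 CPM under DMSO. RAD50 and RBBP8, the structural subunit and the nuclease cofactor, fell by 0.28 each (SE 0.11 and 0.10, edgeR adjusted p = 0.045 and 0.028). These small falls did not hold: of 16 refits without 1 wild-type library, 13 lost the call of RAD50 and 6 that of RBBP8, and with DESeq2 size factors neither passed (edgeR adjusted p = 0.14 and 0.12). MRE11, the sensor nuclease, had medians of 8.43 CPM under OTS964 and 8.64 CPM under DMSO (-0.14 ± 0.16, edgeR adjusted p = 0.46).

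Neither signalling kinase passed the test per gene with TMM. ATM, which answers to breaks, had medians of 34.1 CPM with OTS964 and 36.0 CPM with DMSO in wild-type libraries (-0.33 ± 0.24, edgeR adjusted p = 0.26). ATR, which answers to stalled forks, had medians of 37.0 CPM with OTS964 and 48.6 CPM with DMSO (-0.23 ± 0.11, edgeR adjusted p = 0.077). Its only matched transcript was called lower in the fit of transcripts (log2 fold change -0.33, edgeR adjusted p = 0.033). Both groups of libraries overlapped in both genes. With library totals both passed as lower, ATM at -0.87 and ATR at -0.78 (edgeR adjusted p = 0.0059 and 4.5e-05). ATR passed, at -0.29, without the second MDA-MB-231 OTS964 library (edgeR adjusted p = 0.019), and at -0.28 without the second A375 OTS964 library or without the first MDA-MB-231 DMSO library (0.039 in each).

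**Figure D2:**
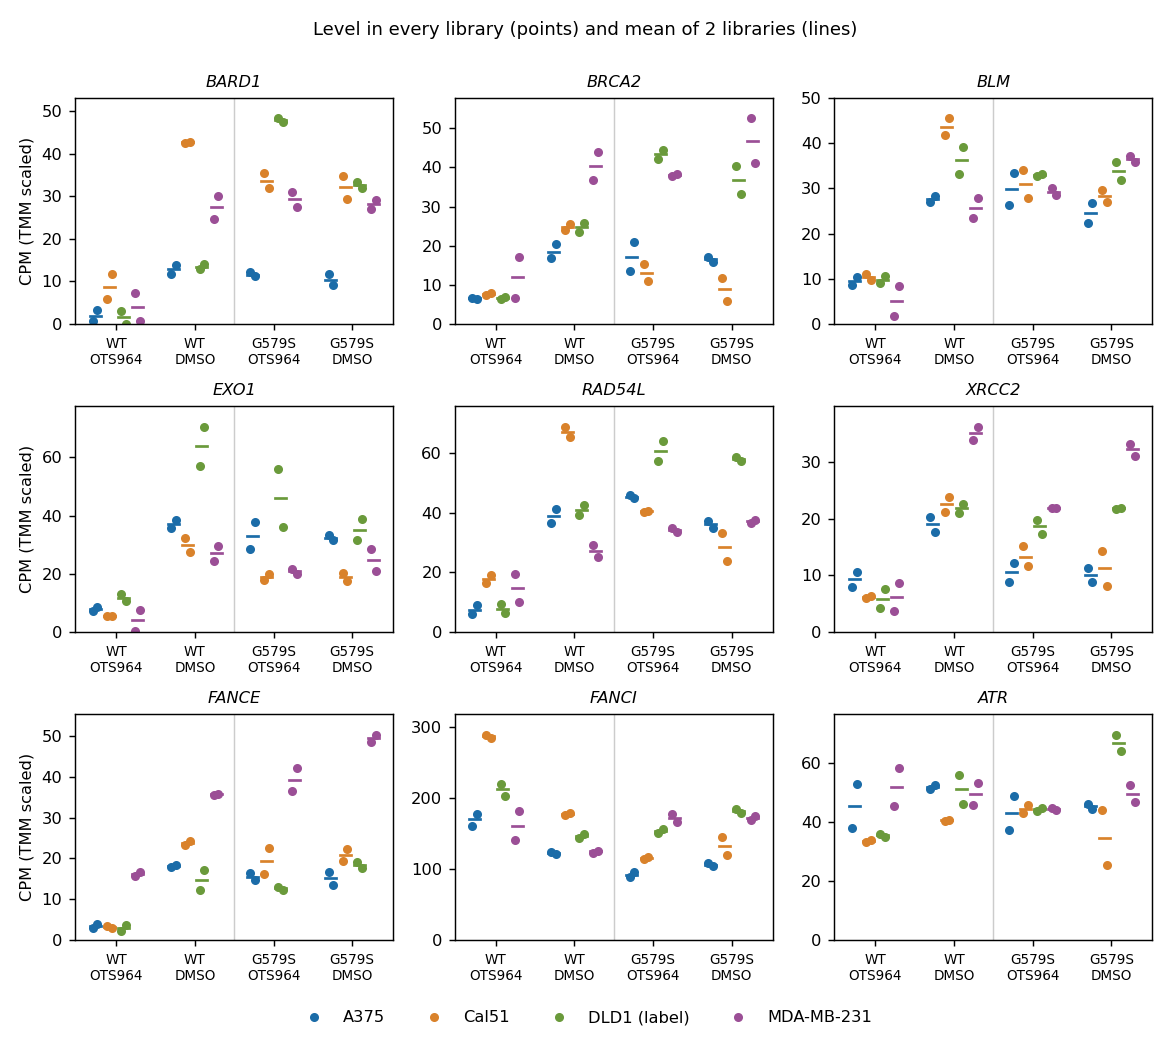
Level in CPM (y axis) of 9 members in every library (points), with the mean of 2 libraries (lines), by genotype and treatment (x axis) and line (colour). EXO1 and BLM stay at or below 13.0 and 11.1 CPM in wild-type OTS964 libraries, under every wild-type DMSO library, and ATR overlaps.

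The members grouped here with the Fanconi core complex split. Of these 9 genes, which include the conjugating enzyme UBE2T, 5 fell in wild-type cells, 1 rose and 3 did not pass the test. FANCE, the subunit that binds FANCD2, lay between 2.29 and 16.7 CPM (median 3.54 CPM) in wild-type cells with OTS964 and between 12.2 and 35.8 CPM (median 20.9 CPM) in wild-type DMSO libraries. The 6 OTS964 libraries of the other lines were all below 12.2 CPM and the 2 of MDA-MB-231 were above it, and the log2 fold change was -2.17 ± 0.23 (edgeR adjusted p = 1.1e-06). FANCB, a scaffold of the ligase module, fell by 1.79 ± 0.18 on the log2 scale (edgeR adjusted p = 9.9e-07) with medians of 2.96 CPM under OTS964 and 10.3 CPM under DMSO. FANCC, the partner of FANCE, lay between 8.79 and 18.3 CPM (median 12.7 CPM) with OTS964 and between 25.5 and 38.3 CPM (median 28.9 CPM) with DMSO. Its groups did not overlap (-1.25 ± 0.15, edgeR adjusted p = 3.8e-06).

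FANCM, the translocase that anchors the complex to DNA, lay between 0 and 6.53 CPM (median 2.39 CPM) with OTS964 in wild-type cells and between 14.0 and 21.5 CPM (median 17.4 CPM) in wild-type DMSO libraries. Its groups did not overlap, and 4 OTS964 libraries were at 0: both of Cal51 and the first of labelled DLD1 wild-type and of MDA-MB-231. In Cal51 a floor of 3 counts in each library makes the level at least 62.7-fold lower than the 17.9 CPM under DMSO. The fitted log2 fold change across lines, which depends on the libraries at 0, was -2.99 ± 0.96 (edgeR adjusted p = 0.015) and -3.89 without the second MDA-MB-231 OTS964 library. Within lines FANCM was called lower in 1 of the 4 labelled wild-type lines, Cal51. Its only matched transcript did not pass in the fit of transcripts (-3.2, edgeR adjusted p = 0.059). FANCL, the ligase, fell by 0.74 ± 0.23 on the log2 scale (edgeR adjusted p = 0.012) with overlapping groups and medians of 14.9 CPM under OTS964 and 26.8 CPM under DMSO.

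The other genes of this group were not called lower with TMM. FANCA and UBE2T, both at -0.75, were with library totals (edgeR adjusted p = 1.2e-05 and 0.0073). FANCG, an adaptor of the complex, had medians of 74.6 CPM with OTS964 and 55.3 CPM with DMSO and rose by 0.33 ± 0.12 on the log2 scale with TMM (edgeR adjusted p = 0.029), but stood at -0.22 with library totals. Without the first labelled DLD1 wild-type OTS964 library, or without the first or the second MDA-MB-231 DMSO library, it no longer passed (edgeR adjusted p = 0.054, 0.072 and 0.072). FANCA, the core gene most often mutated in Fanconi anaemia, had medians of 34.9 CPM with OTS964 and 42.5 CPM with DMSO (-0.21 ± 0.09, edgeR adjusted p = 0.058). It passed, at -0.24, without the second labelled DLD1 wild-type DMSO library and, at -0.23, without the second MDA-MB-231 OTS964 library (0.039 in each). UBE2T had medians of 68.2 CPM with OTS964 and 60.1 CPM with DMSO (-0.20 ± 0.19, edgeR adjusted p = 0.36). FANCF, an adaptor encoded by a single exon, lay between 2.54 and 43.4 CPM (median 23.9 CPM) with OTS964 and between 7.37 and 16.2 CPM (median 12.1 CPM) with DMSO. It moved in opposite ways in different lines and did not pass across them (0.54 ± 0.32, edgeR adjusted p = 0.16). It passed without the first MDA-MB-231 OTS964 library, at 0.77 (edgeR adjusted p = 0.019), and stood at -0.02 with library totals.

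The RNA of the 2 proteins that carry ubiquitin was not called lower with TMM. FANCI lay between 141 and 289 CPM (median 192 CPM) in wild-type cells with OTS964 and between 121 and 179 CPM (median 135 CPM) in wild-type DMSO libraries. It rose by 0.52 ± 0.07 on the log2 scale with TMM (edgeR adjusted p = 8.2e-06), with overlapping groups, and stood at -0.03 with library totals. FANCD2 had medians of 51.3 CPM with OTS964 and 48.4 CPM with DMSO (0.11 ± 0.09, edgeR adjusted p = 0.29). It passed as lower with library totals, at -0.44, and as higher with DESeq2 size factors, at 0.22 (edgeR adjusted p = 0.00065 and 0.048). SLX4, the nuclease scaffold, fell by 1.21 ± 0.18 on the log2 scale (edgeR adjusted p = 3.3e-05) with medians of 14.7 CPM under OTS964 and 38.6 CPM under DMSO.

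Per transcript length the set spanned a wide range. In TPM, a relative abundance that accounts for transcript length, UBE2T had the highest wild-type medians, 105 TPM with OTS964 and 161 TPM with DMSO, and FANCI followed in the OTS964 group with 41.8 TPM, against 49.3 TPM with DMSO. BRCA1 had the lowest DMSO median, 0.788 TPM, with 0.320 TPM under OTS964. BRCA2 stood at 0.582 TPM under OTS964 and 3.71 TPM under DMSO. The wild-type medians of FANCI, UBE2T, FANCD2, FANCG and RAD51B were lower with OTS964 in TPM and higher in CPM. TPM was summed without the TMM factors used for CPM, so TPM and CPM do not share a scale. The part of the scaling in these differences was not tested.

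Within wild-type lines the falls were shared. Labelled DLD1 wild-type cells carried melanocyte markers, as A375 did, and whether they are a line separate from A375 was not tested. In A375 16 members fell and 2 rose, against 25.0% of all genes that fell. In Cal51 21 fell and 1 rose, against 27.8%. In labelled DLD1 wild-type 19 fell and 2 rose, against 27.7%. In MDA-MB-231 16 fell and 3 rose, against 22.4%. The share of genes that rose was 20.8%, 24.9%, 22.2% and 24.1% in the 4 lines in that order. 14 members fell in all 4 labelled lines, against 13.3% of all genes: BRCA2, PALB2, BARD1, BRIP1, XRCC2, XRCC3, RAD52, RAD54L, RAD54B, FANCB, FANCC, FANCE, BLM and EXO1. When each library of a line was left out in turn, 9 of the 14 kept all their calls and 5 (PALB2, BARD1, XRCC2, RAD52 and RAD54L) lost at least 1. FANCI passed as higher in all 4 lines with TMM, against 13.6% of all genes, while its log2 fold changes were -0.01 in Cal51, -0.01 in labelled DLD1 wild-type and -0.13 in MDA-MB-231 with library totals. Its MDA-MB-231 call was lost without the second OTS964 library there (0.17, edgeR adjusted p = 0.14). Over the 8 OTS964 and 8 DMSO wild-type libraries, 9 members did not overlap and were lower with OTS964 (PALB2, XRCC2, RAD52, RAD54L, RAD54B, FANCC, FANCM, BLM and EXO1), against 10.1% of all genes, and 0 were higher, against 5.09%. Without the 4 libraries labelled DLD1 wild-type, 19 members fell across lines and 1 rose. The median log2 fold change was then -0.90 over the members and -0.08 over all genes.

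**Figure D3:**
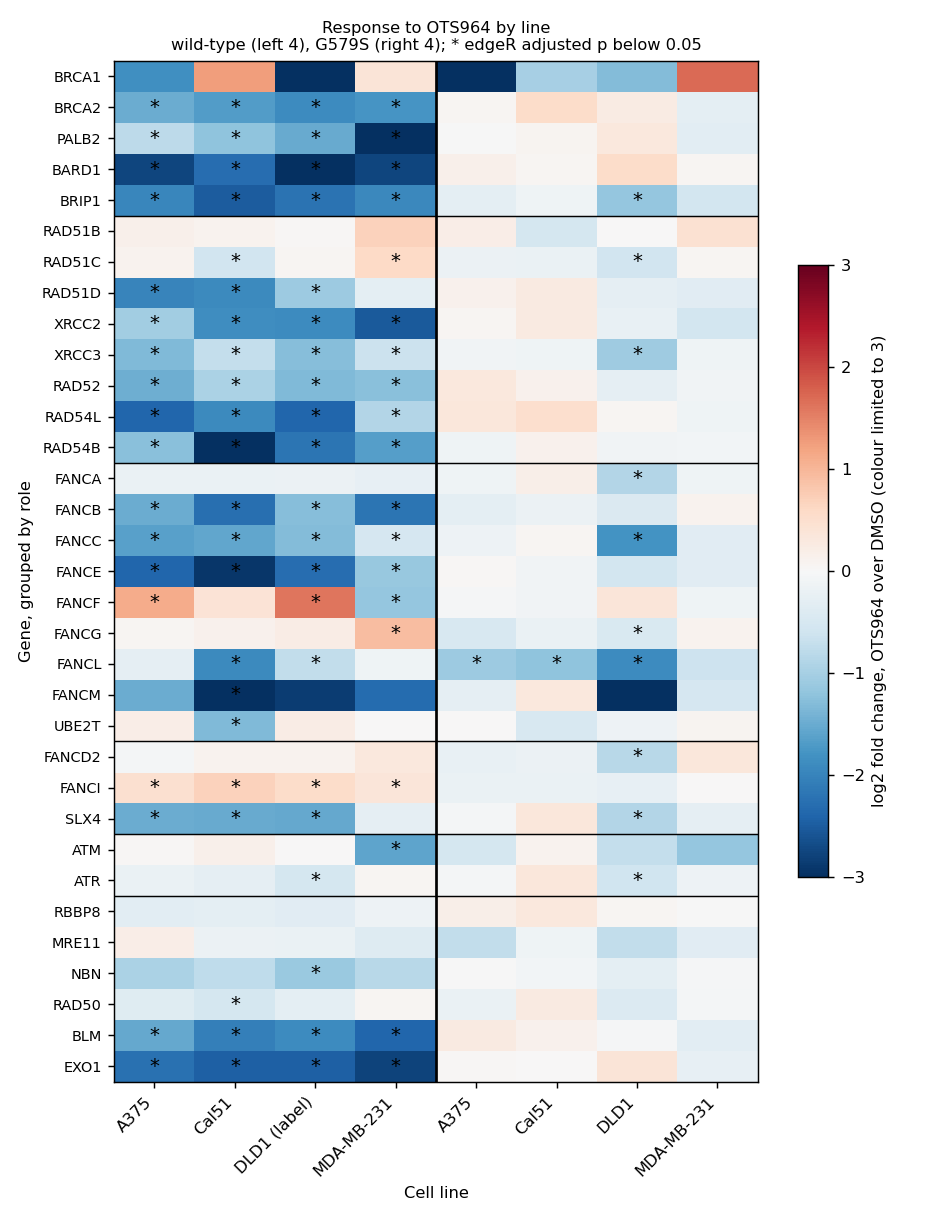
Log2 fold change, OTS964 over DMSO (colour), of the 33 genes (rows, by role) in the 4 wild-type lines (left columns) and the 4 G579S lines (right columns), with stars where edgeR's adjusted p was below 0.05. In wild-type cells 14 rows are lower in all 4 lines, and in G579S cells the calls lie mostly in DLD1, with 10 lower.

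Some members answered differently between wild-type lines, by the response of a labelled line minus the mean of the other 3 labelled lines. FANCF had 32.5 and 36.0 CPM with OTS964 against 16.2 and 15.2 CPM with DMSO in A375, and 43.4 and 33.4 CPM against 11.8 and 13.4 CPM in labelled DLD1 wild-type. In MDA-MB-231 it had 2.54 and 4.65 CPM with OTS964 against 7.37 and 8.63 CPM with DMSO, and in Cal51 15.4 and 14.1 CPM against 12.4 and 10.0 CPM. It rose by 1.12 ± 0.21 and 1.61 ± 0.21 on the log2 scale in A375 and labelled DLD1 wild-type (edgeR adjusted p = 0.00021 and 3.3e-06) and fell by 1.16 ± 0.22 in MDA-MB-231 (0.00021). The MDA-MB-231 response lay 2.20 ± 0.25 below the mean of the others (edgeR adjusted p = 2.7e-06) and that of labelled DLD1 wild-type 1.49 ± 0.25 above it (0.00097).

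UBE2T, the conjugating enzyme, fell in Cal51 only among the 4 lines at the threshold. It had 20.9 and 24.1 CPM with OTS964 against 58.6 and 54.6 CPM with DMSO there, a log2 fold change of -1.33 ± 0.15 (edgeR adjusted p = 3.7e-07). In the other lines it lay between 54.4 and 91.3 CPM with OTS964 and between 58.8 and 77.8 CPM with DMSO. The Cal51 response was lower than the mean of the others by a log2 difference of -1.48 ± 0.17 (edgeR adjusted p = 9.2e-06). In all, 5 members responded lower in Cal51 than in the others (RAD51C, RAD54B, FANCE, FANCL and UBE2T), against 7.38% of all genes, and 0 higher. FANCE no longer passed without the second Cal51 DMSO or the second Cal51 OTS964 library (edgeR adjusted p = 0.052 and 0.091).

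MDA-MB-231 had the most calls of the 4 wild-type lines, among the members and among all genes. There 3 members were lower (PALB2, FANCF and ATM), 9.09% against 8.30% of all genes. In the other direction 8 were higher (RAD51C, RAD51D, RAD54L, FANCC, FANCE, FANCG, FANCL and SLX4), against 16.1% of all genes. PALB2 had 1.63 and 4.58 CPM with OTS964 against 27.2 and 25.5 CPM with DMSO there, a log2 fold change of -3.10 ± 0.34 (edgeR adjusted p = 5.6e-07), and its difference from the other lines was -1.93 ± 0.37 (0.00069). These were -4.01 and -2.84 without the second MDA-MB-231 OTS964 library, and -2.52 and -1.35 without the first, and passed in each. FANCE, in contrast, had 15.6 and 16.7 CPM with OTS964 against 35.6 and 35.8 CPM with DMSO, a smaller fall than in the other lines by 1.39 ± 0.24 (edgeR adjusted p = 0.00019). ATM fell in MDA-MB-231 by 1.58 ± 0.35 on the log2 scale (edgeR adjusted p = 0.00088), with 8.84 and 13.1 CPM under OTS964 against 24.2 and 41.0 CPM under DMSO. Its difference from the other lines, -1.64, no longer passed without the second MDA-MB-231 DMSO library (-1.21, edgeR adjusted p = 0.061). Of the higher ones, RAD51D was lost without either MDA-MB-231 DMSO library or the second OTS964 library there (edgeR adjusted p between 0.063 and 0.093). FANCL was lost without the second DMSO or the second OTS964 library (0.11 and 0.068), and RAD51C without the second DMSO library (0.058, all edgeR adjusted p). In A375 RAD54B was higher and FANCC lower than in the others, against 2.23% and 2.44% of all genes, and in labelled DLD1 wild-type FANCF and UBE2T were higher and 0 lower, against 1.66% and 3.18%. The A375 calls and that of UBE2T in labelled DLD1 wild-type lay near the threshold (edgeR adjusted p between 0.044 and 0.049). They were lost in most refits without 1 wild-type library. The log2 differences there ranged from 0.76 to 1.42 for RAD54B, -0.53 to -0.47 for FANCC and 0.55 to 0.65 for UBE2T. The A375 counts of 1 member in each direction were near the shares of all genes.

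**Figure D4:**
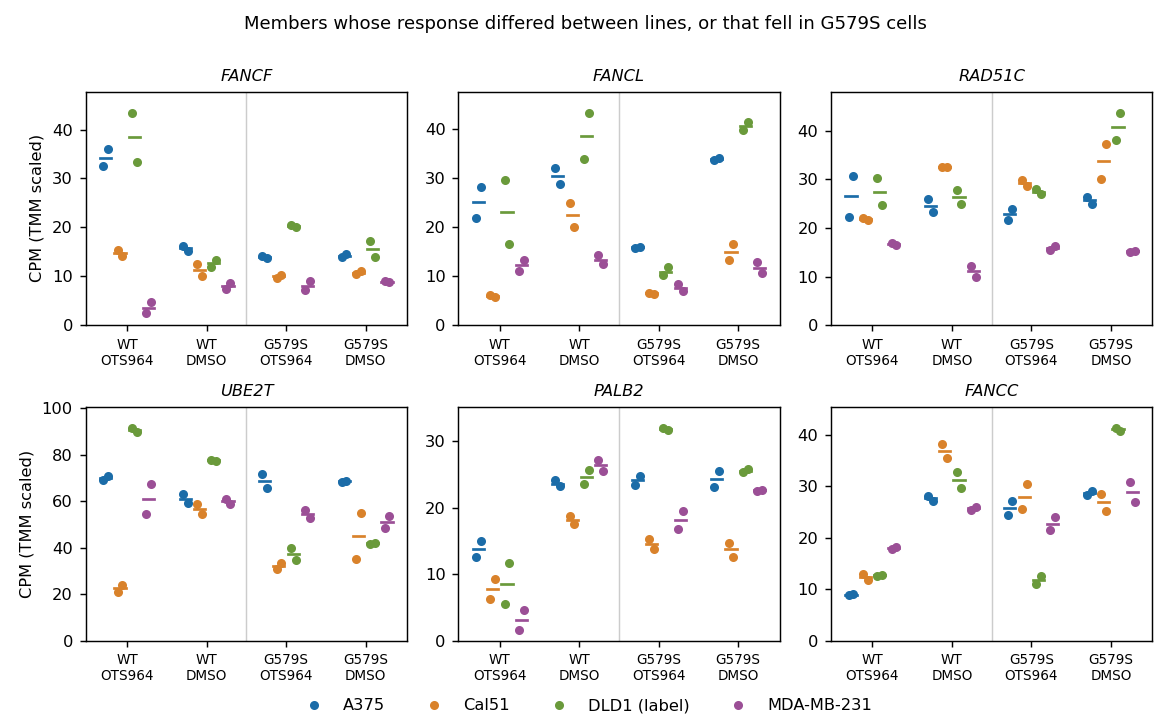
Level in CPM (y axis) in every library (points) and mean of 2 libraries (lines), by genotype and treatment (x axis) and line (colour), of 6 members that differed between lines or fell in G579S cells. FANCF is above its DMSO libraries in A375 and labelled DLD1 wild-type OTS964 libraries and below them in MDA-MB-231, and FANCL is lower with OTS964 in each G579S line.

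In G579S cells few members were called, and how many depended on the fit. Across lines 1 of 33 members fell and 0 rose, against 1.17% of all genes that fell and 1.26% that rose, and the median of the members was -0.14. With library totals 5 fell, with DESeq2 6, as the mean of 4 lines 8, and without the second Cal51 G579S DMSO library 5. The shares of all genes called in these fits are not reported here, so these counts are not read as a trait of the set. In 0 members were all 8 OTS964 libraries below all 8 DMSO libraries, against 0.0629% of all genes. The gene was FANCL. It had 15.6 and 16.0 CPM with OTS964 against 33.6 and 34.1 CPM with DMSO in A375 G579S, and 6.61 and 6.31 CPM against 13.3 and 16.5 CPM in Cal51 G579S. In DLD1 G579S it had 10.1 and 11.8 CPM against 39.8 and 41.4 CPM, and in MDA-MB-231 G579S 8.35 and 6.92 CPM against 12.8 and 10.6 CPM. Within each G579S line every OTS964 library was below every DMSO library. The log2 fold change across lines was -1.21 ± 0.15 (edgeR adjusted p = 0.0023), against -0.74 ± 0.23 in wild-type cells, and the difference of these responses did not pass (0.46 ± 0.28, adjusted p = 0.18). The next genes by p were BRIP1, at -0.53 ± 0.14 (edgeR adjusted p = 0.052), MRE11, at -0.48 ± 0.15 (0.089), and FANCG, at -0.26 ± 0.08 (0.093).

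The G579S lines differed in how many members were called. In A375 and in Cal51 G579S cells FANCL fell, against 0.272% and 0.251% of all genes, and in MDA-MB-231 G579S cells 0 members were called, against 0.0838% that fell. The FANCL call in A375 was lost without any 1 of the 4 libraries (edgeR adjusted p between 0.15 and 0.18), and that in Cal51 without the second DMSO or either OTS964 library (0.21 to 0.31). In DLD1 G579S cells 10 members fell and 0 rose, against 12.7% of all genes that fell and 10.8% that rose: BRIP1, RAD51C, XRCC3, FANCA, FANCC, FANCD2, FANCG, FANCL, SLX4 and ATR. FANCC had 11.0 and 12.5 CPM with OTS964 against 41.3 and 40.8 CPM with DMSO there, a log2 fold change of -1.80 ± 0.12 (edgeR adjusted p = 9.1e-09). BARD1, EXO1 and BLM, which fell in all wild-type lines, had log2 fold changes of 0.55, 0.39 and -0.04 in DLD1 G579S cells and did not pass. Without any 1 of the 4 DLD1 G579S libraries 7 to 9 members were called: ATR was lost in 4 of these refits, RAD51C in 2 (without the second DMSO or the second OTS964 library), FANCG in 2 (without the second DMSO or the first OTS964 library) and FANCD2 in 1 (without the first OTS964 library). In MDA-MB-231 CDK11B, which encodes one of the CDK11 kinases, had 605 and 672 CPM in G579S against 61.8 and 56.4 CPM in wild-type cells under DMSO, and 850 and 880 CPM against 60.0 and 71.3 CPM under OTS964. Its part in the MDA-MB-231 counts was not tested. The difference between the G579S lines was not tested.

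The direct test of wild-type against G579S responses called 18 members with a lower response in wild-type cells and 2 with a higher one, against 25.8% and 24.3% of all genes. In DLD1 the compared cells also differed in lineage markers, so genotype and cell type cannot be told apart there. The largest differences were -2.93 ± 0.51 for BARD1 (edgeR adjusted p = 2.9e-05) and -2.52 ± 0.38 for EXO1 (3.4e-06), followed by -2.08 ± 0.24 for RAD54L and -2.02 ± 0.28 for RAD54B. FANCM, which fell in wild-type cells, had a difference of -2.08 ± 1.12 (edgeR adjusted p = 0.13), with 1 G579S OTS964 library also at 0. FANCI and FANCG had differences of 0.68 ± 0.08 and 0.59 ± 0.15 (edgeR adjusted p = 1.7e-07 and 0.0015) with TMM scaling and of 0.25 and 0.16 (0.024 and 0.43) with library totals.

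Under DMSO the genotypes differed most in Cal51, and this rested on few libraries. There 12 members were lower in G579S than in wild-type cells and 0 higher, against 6.74% and 10.3% of all genes: BRCA2, BRIP1, XRCC2, XRCC3, RAD54L, FANCA, FANCB, FANCC, FANCD2, FANCI, SLX4 and RBBP8. RAD54L had 33.3 and 23.8 CPM in Cal51 G579S against 68.9 and 65.3 CPM in Cal51 wild-type, a log2 difference of -1.23 ± 0.23 (edgeR adjusted p = 0.00089). Of the cell cycle lists, 20 of 20 G2/M genes (median -0.87) and 7 of 20 G1/S genes were lower in Cal51 G579S and 0 higher, and their part was not tested. BRCA2 had 11.8 and 5.94 CPM in G579S against 23.9 and 25.6 CPM in wild-type (-1.48 ± 0.33, edgeR adjusted p = 0.0043). Without the second Cal51 G579S DMSO library 3 members were called, and without either wild-type DMSO library 5. In A375 RBBP8 and RAD50 were lower in G579S (-0.95 ± 0.24 and -0.77 ± 0.19, edgeR adjusted p = 0.014 and 0.010) and 0 were higher, against 5.38% and 4.39% of all genes. Without the first wild-type library, or without the first or the second G579S library, 0 were called. In MDA-MB-231 FANCG was lower and FANCI higher in G579S (-0.51 ± 0.13 and 0.47 ± 0.10, edgeR adjusted p = 0.019 and 0.0057), against 4.55% and 2.74%. 0 were called without the first wild-type or the second G579S library.

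In DLD1 2 members were lower in G579S (FANCB and UBE2T) and 5 higher (BRIP1, RAD51C, FANCC, FANCI and RAD50), against 26.4% and 22.7% of all genes. RAD50 had 157 and 142 CPM in DLD1 G579S against 44.8 and 40.9 CPM in labelled DLD1 wild-type, a log2 difference of 1.80 ± 0.19 (edgeR adjusted p = 1.3e-07). UBE2T had 41.5 and 42.2 CPM against 77.8 and 77.3 CPM (-0.89 ± 0.15, edgeR adjusted p = 4.4e-05). Because the labelled DLD1 wild-type cells carry markers of another lineage, genotype and cell type cannot be told apart in these 7 genes. Without the first wild-type or the first G579S DMSO library 4 members were called.

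Of 89 matched transcripts of the members, 80 passed the filter. In wild-type cells across lines 22 of them fell and 1 rose, against 17.0% and 14.0% of all 28800 tested transcripts (edgeR quasi-likelihood test). Among 21 members with several transcripts, the share of transcripts within the gene changed in 1, BLM, against 5.22% of 7052 genes (edgeR diffSpliceDGE, Simes adjusted p = 0.048). This count of 1 in 21 is near the share of all genes. A predicted BLM transcript of 2611 bases, XM_006720632.1, held 0 reads in all 8 wild-type OTS964 libraries and 738 reads in the 8 wild-type DMSO libraries, 14.3% of the BLM reads there, with 2 DMSO libraries also at 0. The DMSO libraries held 45 and 118 reads in A375, 207 and 215 in Cal51, 0 and 104 in labelled DLD1 wild-type, and 49 and 0 in MDA-MB-231. The main transcript, NM_000057.3, held 622 reads with OTS964 and 3948 reads with DMSO, 72.7% and 76.2% of the BLM reads. NM_001287246.1 held 23.1% with OTS964 and 8.98% with DMSO (197 and 465 reads), with 3 OTS964 libraries and 1 DMSO library at 0. The largest fitted log2 rise in share was that of NM_001287248.1, with 22 reads under OTS964, all of them in 1 library, and 0 under DMSO. In G579S cells XM_006720632.1 held 18.4% of the BLM reads with OTS964 and 18.8% with DMSO, and 0 members changed transcript share, against 0.0993% of genes.

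Of 66 other genes of the pathway, 65 were tested. In wild-type cells 32 fell and 17 rose, against 31.8% and 27.1% of all genes, with a median log2 fold change of -0.45. With library totals 43 fell and 9 rose, against 47.7% and 13.4%. The 6 with the lowest p that fell were GEN1, a resolvase (-2.28 ± 0.15), UHRF1, a sensor of crosslinks (-1.47 ± 0.11), TOP3A, the topoisomerase that works with BLM (-2.38 ± 0.17), ATRIP, the partner of ATR (-1.36 ± 0.13), RIF1, which restrains resection (-1.78 ± 0.19), and the helicase RECQL5 (-2.96 ± 0.31), with edgeR adjusted p between 1.7e-08 and 1.3e-06. GEN1 averaged 5.99 ± 1.54 CPM with OTS964 and 29.1 ± 3.55 CPM with DMSO (SD, n = 8 libraries each over 4 lines). The 6 that rose were the histone H2AX (1.51 ± 0.10), SEM1, a small protein bound to BRCA2 (1.11 ± 0.08), BABAM1 and BABAM2 of a BRCA1 complex (0.94 ± 0.08 and 0.84 ± 0.08), and RPA3 and RPA1, which coat single strands (1.08 ± 0.09 and 0.57 ± 0.06), with edgeR adjusted p between 1.8e-08 and 1e-06. All but RPA1, at 0.02, still passed as higher with library totals. In G579S cells 0 of the 65 passed, against 1.17% of all genes that fell and 1.26% that rose.

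Other repair pathways divided more evenly than the members in wild-type cells. Of all tested genes 31.8% fell and 27.1% rose (47.7% and 13.4% with library totals). With few genes in each list, these counts are not read as a trait of the pathways. Of 13 end joining genes 3 fell and 5 rose (with library totals 7 and 3), and the subunits XRCC6 and XRCC5, which bind broken ends, and PARP1 rose by 1.06 ± 0.07, 0.76 ± 0.07 and 0.88 ± 0.06 on the log2 scale (edgeR adjusted p between 8.7e-09 and 1.8e-07). DCLRE1C, POLM and POLL, which process ends and fill gaps, stood at -1.18, -3.47 and -0.46 (edgeR adjusted p = 0.0017, 0.02 and 0.028). Of 8 mismatch repair genes 3 fell and 1 rose (7 and 0 with library totals): MSH6, PMS2 and MLH3 stood at -0.96, -2.84 and -1.84. Of 21 nucleotide excision genes 8 fell and 5 rose (15 and 4 with library totals). CDK7, GTF2H1 and UVSSA stood at -1.56, -1.23 and -1.17, and DDB1 and CETN2 at 0.85 and 1.16. The medians of these lists were -0.12, -0.35 and -0.10, against -0.99 for the 33 members, and the lists were not tested against each other.

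Cell cycle genes and transcription kinases also changed in wild-type cells, and not all of them in the direction of most members. Of all tested genes 31.8% fell and 27.1% rose there (47.7% and 13.4% with library totals). Of 20 G1/S genes 8 fell and 9 rose (10 and 1 with library totals), with a median log2 fold change of 0.15 (-0.40 with library totals). The cyclin CCNE2 stood at -2.40, CDT1 at -1.49 and SLBP at -2.78. TYMS, MCM4 and MCM7 stood at 0.70, 0.45 and 0.57, of which MCM4 was at -0.10 and MCM7 at 0.02 with library totals. Of 20 G2/M genes 14 fell and 0 rose (20 and 0 with library totals), with a median of -0.41 (-0.96 with library totals). CDCA8, KIF11 and TTK, which act in mitosis, stood at -2.28, -1.65 and -2.31. Of 10 transcription kinases and their cyclins 6 fell and 1 rose (9 and 1 with library totals). The cyclin CCNL1, which rose, stood at 2.48 ± 0.42 in wild-type cells and at 1.31 in G579S cells (edgeR adjusted p = 0.00013 and 0.025). CDK9, CDK11B and CCNL2 did not pass with TMM. CDK12, known to sustain transcription of long repair genes, averaged 32.5 ± 15.1 CPM with OTS964 and 100 ± 11.5 CPM with DMSO (SD, n = 8 libraries each over 4 lines), a log2 fold change of -1.70 ± 0.26 (edgeR adjusted p = 4.4e-05). Its cyclin CCNK stood at -1.28 ± 0.16 and CDK13 at -1.11 ± 0.15. The part of these genes in the members' falls was not tested.

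**Figure D5:**
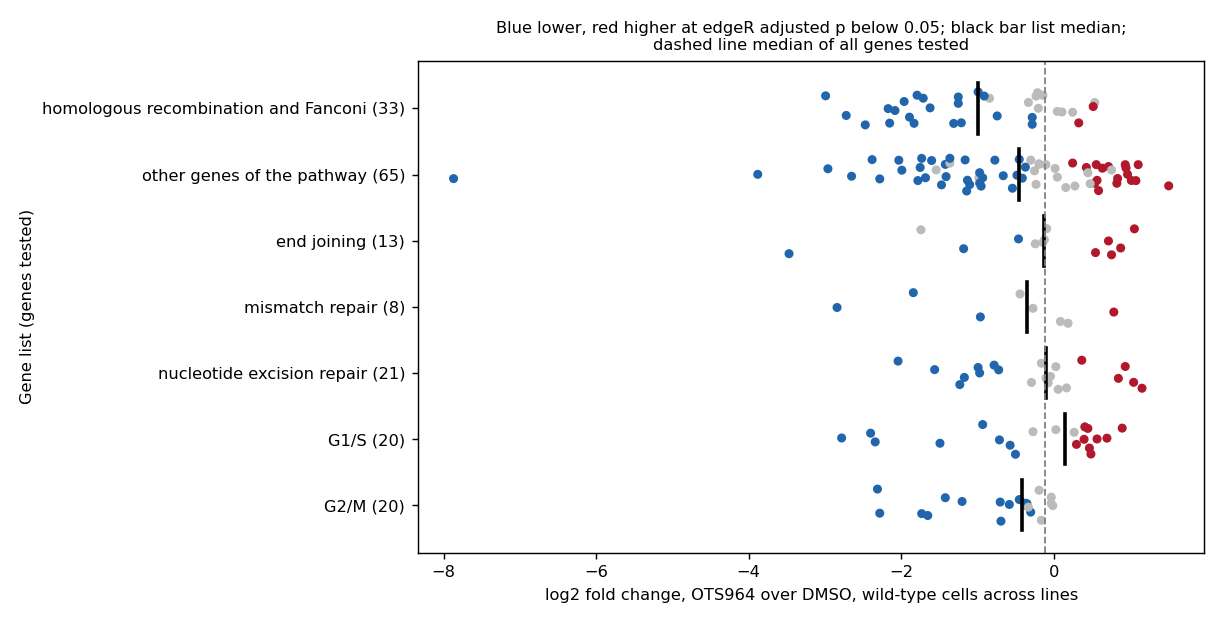
Log2 fold change, OTS964 over DMSO in wild-type cells across lines (x axis), of each tested gene (points) in 7 lists (rows), with the list median (black bar) and the median of all genes (dashed line). The 33 members have a median of -0.99, the other pathway genes of -0.45, and the other repair lists lie closer to the median of all genes, -0.11.

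The size of the change went little with exon number or length within the set. Across the 33 members, which are not independent replicates, Spearman's rho of the wild-type log2 fold change was 0.09 with the number of exons, -0.06 with the length of the gene and -0.14 with the length of the transcript. Over all genes tested it was -0.13, -0.24 and -0.31. With the mean level it was 0.30 for the members and 0.29 for all genes. FANCF, with 1 exon and 3.3 kb, and FANCG, with 6.1 kb, were the shortest members. Neither was called lower in wild-type cells across lines, though FANCF fell in MDA-MB-231. In the same fit across lines FANCE, with 14.8 kb, fell by 2.17 on the log2 scale, and RAD51B, with 863.3 kb the longest, was not called. The part of gene length was not tested. The members had a median of 15 exons, against 9 for all genes, and a median gene length of 79.1 kb, against 30.3 kb.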

How the data were processed

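RNA of 32 libraries was quantified per transcript by the authors, who deposited estimated counts and relative abundances in TPM, per the file headers. The quantifier, its version and the annotation are not given in the sources used here. The builds in the submitters' processing notes are of the mouse, while the matched identifiers are human, so no build is given for the counts. Estimated counts were rounded to whole numbers after summing transcripts per gene. Of 87398 identifiers, 42587 (48.7%) matched a RefSeq or GENCODE gene and carried 87.56% of the reads, at least 14333298 reads a library. Intervals and floors cover counting error only. Strand use in counting is not stated, so reads of overlapping and antisense genes cannot be told apart, and BRCA1 and FANCD2 share sequence with pseudogenes.

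Genes were tested in R 4.3.3 with edgeR 4.0.16 (TMM scaling, filterByExpr, robust quasi-likelihood F test) with Benjamini-Hochberg adjusted p below 0.05 over 14318 genes. Responses across lines were fitted with line as a block, over 16 libraries of a genotype or all 32 for the difference, and responses within lines in a fit of 16 groups. Transcript shares were tested with diffSpliceDGE. Alternatives were DESeq2 1.42.0, DESeq2 size factors, library totals, no filter, length-scaled TPM, a replicate block, the mean of 4 lines, leaving out the labelled DLD1 wild-type libraries, and leaving out each library in turn. The 32 refits of the last kept the trended dispersion of all libraries and estimated the quasi-likelihood dispersion again. All 33 members are accounted for. Other genes were named by the lowest p among those called, 6 in each direction for the pathway and 3 for the other repair and cell cycle lists, and transcripts by the largest changes in share in genes that passed. Transcription kinases, marker genes and the genes of the properties were named after their values were seen. Some genes that this rule names are not reported here. The members and lists were chosen with earlier results of these data known. The scripts were tested on simulated data.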

Additional observations from a re-analysis of the deposited data

Results flagged for a closer look

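Responses of 20 members differed between genotypes in a direct test, as wild-type response minus G579S response on the log2 scale (edgeR adjusted p below 0.05). In DLD1 the compared cells also differed in lineage markers. Those lower in wild-type cells were BARD1 (-2.93), EXO1 (-2.52), RAD54L (-2.08), RAD54B (-2.02), BLM (-1.98), FANCE (-1.93), BRCA2 (-1.84), XRCC2 (-1.71), PALB2 (-1.64), BRIP1 (-1.62), FANCB (-1.59), RAD52 (-1.27), RAD51D (-1.26), SLX4 (-1.0), NBN (-0.80), FANCC (-0.71), XRCC3 (-0.64) and RBBP8 (-0.41). Those higher were FANCI (0.68) and FANCG (0.59). The FANCC difference no longer passed without the second Cal51 G579S DMSO library (-0.63, adjusted p = 0.051), nor that of RBBP8 without the second labelled DLD1 wild-type OTS964 library (-0.38, adjusted p = 0.053).

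Responses also differed between wild-type lines, each tested against the mean of the other 3. In MDA-MB-231 FANCF (-2.20), PALB2 (-1.93) and ATM (-1.64) were lower, and FANCE (1.39), RAD51D (1.35), RAD54L (1.34), SLX4 (1.26), FANCC (0.99), FANCL (0.85), FANCG (0.78) and RAD51C (0.73) were higher. In Cal51 RAD54B (-1.61), FANCL (-1.54), UBE2T (-1.48), FANCE (-0.97) and RAD51C (-0.82) were lower. In labelled DLD1 wild-type FANCF (1.49) and UBE2T (0.59) were higher, and in A375 RAD54B (1.12) was higher and FANCC (-0.50) lower. The call of UBE2T in labelled DLD1 wild-type and both A375 calls were lost in most refits without 1 wild-type library.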

How the results depend on the processing

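The fall of members in wild-type cells across lines was called for 19 to 23 of them when 1 library was left out, for 28 with library totals, for 19 with DESeq2 size factors and for 19 without the labelled DLD1 wild-type libraries. The counts of higher calls and those within G579S lines also moved, and the cause was not tested. The 2 members called higher became 0 with library totals, 3 with DESeq2 size factors, which adds FANCD2, 1 with the replicate block, 1 without the labelled DLD1 wild-type libraries and 1 to 3 without 1 library. Under library totals the log2 fold changes turned to -0.29 for RAD51B, -0.50 for RAD51C, -0.44 for FANCD2, -0.02 for FANCF, -0.22 for FANCG and -0.03 for FANCI, and FANCI stood at -0.01 in Cal51, -0.01 in labelled DLD1 wild-type and -0.13 in MDA-MB-231. RAD51C ranged between -0.03 and 0.12 without 1 library.

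In G579S cells across lines 1 member was called lower, against 5 with library totals, 6 with DESeq2, 0 with the replicate block, 8 as the mean of 4 lines and 1 to 5 without 1 library; 5 were called without the second Cal51 G579S DMSO library and 2 without the second A375 G579S OTS964 library. Of the differences between genotypes, 2 were called higher, against 1 with library totals, 4 with DESeq2, 6 as the mean of 4 lines and 2 to 4 without 1 library.

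Within lines, members called higher in wild-type cells numbered 1 in A375, 0 in Cal51, 1 in labelled DLD1 wild-type and 1 in MDA-MB-231 with library totals. With DESeq2 and with its size factors they numbered 2 in Cal51 and 4 in labelled DLD1 wild-type. In G579S cells 2 members were called in A375 with library totals, 2 with DESeq2 and 0 with the replicate block or without any 1 library (0 to 0). In Cal51 G579S cells 2 were called with DESeq2, 0 with the block and 0 to 5 without 1 library, and in MDA-MB-231 G579S cells 2 with DESeq2.

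Against the other lines, A375 had 0 members called with no filter, 6 with DESeq2, 0 with length-scaled TPM, 0 with the block and 0 to 11 without 1 library. Labelled DLD1 wild-type had 1 with no filter, 1 with the block and 1 to 5 without 1 library, Cal51 4 to 10 and MDA-MB-231 7 to 16. Between genotypes under DMSO the block left 0 members in A375, 2 in Cal51, 3 in DLD1 and 1 in MDA-MB-231, where DESeq2 called 6. Without 1 library these counts were 0 to 1, 3 to 12, 4 to 5 and 0 to 1 in that order of lines. Libraries of the same replicate number did not deviate together (correlations between -0.06 and 0.10), so the numbers of the replicate block do not pair the samples. BRCA1 and FANCM each had libraries at 0, and low counts limit BRCA1.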
